A study of Cricetulus griseus with 20 samples.

Results

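The genes described here are the solute carriers (SLC genes), the largest family of membrane transporters, as expressed in hamster preadipocytes that differentiated under normal or low oxygen. A member was any row of the mRNA table whose gene ID is paired, in the study's supplementary tables, with a name made of Slc and a digit. Slc2a1 (GLUT1) and Slc7a11 (xCT) were left out, because each belongs to another gene group. Of 10318 mRNAs, 3858 had a name and 70 were members. RNA came from preadipocytes of inguinal white fat of female Chinese hamsters, 6 weeks old, whose tissue was pooled before culture. Cells were exposed for 24 h to hypoxia (1% O2) or kept in normoxia (21% O2), with the exposure ending at confluence (D0) or at D1, D3, D7 or D11 of differentiation induced with dexamethasone, insulin and IBMX. Each of the 10 groups (Hypoxia and Normoxia at each of 5 timepoints) had 2 libraries. Every p-value below rests on the spread between the 2 libraries of a group, pooled over the groups in the fit. Those 2 libraries may or may not come from separate cultures. In such bulk RNA, fewer cells of a type and less RNA per cell cannot be told apart.

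SLC proteins carry sugars, amino acids, fatty acids, nucleotides, metals and ions across the plasma membrane and across the membranes of mitochondria, lysosomes, endoplasmic reticulum and Golgi. Most are secondary active transporters or facilitators: they run on gradients of sodium, protons or the substrate itself, unlike the ATP-driven ABC pumps. In fat cells they set the supply of fatty acids and amino acids for lipid and protein synthesis, the exchange of metabolites between cytosol and mitochondria, and the export of acid made by glycolysis.

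The members fell into 10 substrate classes: 12 mitochondrial carriers, 10 nucleotide sugar and other Slc35 carriers, 8 amino acid carriers, 7 each for metals and heme, bicarbonate with protons and anions, other inorganic ions, and nucleosides with vitamins and small organic molecules, 6 fuel carriers, 4 of unsettled substrate, and 2 scaffold proteins (Slc9a3r1 and Slc9a3r2) that only carry a transporter's name. The naming was not neutral. Of the 70 members, 57 had a name because the study listed them among genes changed by hypoxia at some timepoint, and 13 were named only as neighbours of a lncRNA. SLC genes without a name were not analysed here. Counts at D7 and D11 are therefore descriptions of this list, and they are given again for members whose name did not rest on that timepoint alone.

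The D11 labels need care. Slc2a1, the glucose uptake gene that hypoxia is known to induce, had 95.3 and 92.0 TPM in hypoxia at D0, against 15.8 and 18.5 TPM in normoxia. At D11 it had 126 and 117 TPM in libraries labelled hypoxia, against 130 and 136 TPM in those labelled normoxia. Pgk1, a glycolytic enzyme gene that hypoxia also induces, had 1270 and 1210 TPM against 1860 and 2190 TPM at D11, the opposite order to D0, D1, D3 and D7. Bnip3 and Gapdh, also induced by hypoxia, were lower as well, with log2 fold changes of -1.11 and -0.85. The order was not the same for all such genes. Ankrd37 had 34.6 and 33.5 TPM in libraries labelled hypoxia at D11, against 26.1 and 26.0 TPM in those labelled normoxia (0.37, adjusted p = 0.0028, or -0.14 relative to the median of all mRNAs), while Egln1 (0.31, adjusted p = 0.051) and Ndufa4l2 (0.03) did not pass the test. From these expression values alone, an exchange of the D11 labels cannot be told apart from another response at D11, so every D11 direction below holds for the labels as given. Of the fat cell markers, 6 of 10 had a name and summed to between 66.9 TPM (normoxia, D1) and 589 TPM (normoxia, D7). Of 9 stromal markers 2 had a name (5.93 to 27.9 TPM), of 7 macrophage markers none had a name, and Pecam1, the only named endothelial marker, lay at 0.565 to 9.03 TPM. The listed mRNAs held 27.9% to 45.8% of a library's TPM total.

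Members were of modest abundance. TPM (transcript abundance corrected for transcript length and library depth) averaged over the 20 libraries had a median of 4.15 among members and 8.9 among all mRNAs. Of the 70 members, 28 averaged 5 TPM or more, and 10 averaged under 1 TPM. Slc38a2 (SNAT2), a sodium-coupled carrier of small neutral amino acids, was the most abundant at 158 TPM, followed by Slc25a36 at 63.1 TPM and Slc35b1 at 43.7 TPM. Together the members held 1110 and 1140 TPM in the D11 libraries labelled hypoxia, against 531 and 631 TPM in those labelled normoxia. In the libraries of D0, D1, D3 and D7 the same sum lay between 574 and 789 TPM.

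Hypoxia changed few solute carriers at D0 and lowered more of them at D1, D3 and D7, and at D11 nearly all were higher in the libraries labelled hypoxia. A gene is said to have risen or fallen when its adjusted p in limma was under 0.05 over all 10318 mRNAs, and the share of all mRNAs that did so is given for reference. Before induction, at D0, 2 members rose (3.39% of all mRNAs rose) while 5 fell (2.7%). After 1 day of induction 5 members rose (7.36%) while 21 fell (18.9%), and by D3 there were 8 rises (10.4%) and 23 falls (19.3%). Taken as a mean effect over D0, D1 and D3, 6 members were higher (14.4%) and 30 lower (30.3%). Hypoxia at D7 went with 8 rises (9.97%) and 34 falls (39.2%). For D11 the numbers were 64 higher (63.3%) and 2 lower (13.2%). In percent, 30.0 of members fell at D1 and 32.9 at D3, above the shares of all mRNAs, and 48.6 fell at D7. Of the 3858 mRNAs with a name, 19.2% fell at D1, 21.5% at D3 and 47.5% at D7. The share of members that fell at D7 was thus near that of mRNAs with a name. The early counts leaned on single libraries: 3 members were called at D0 without any 1 of its 4 libraries, 14 at D1 without normoxia replicate 2 and 16 without hypoxia replicate 1, and 16 at D3 without replicate 2 of either condition.

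**Figure D1:**
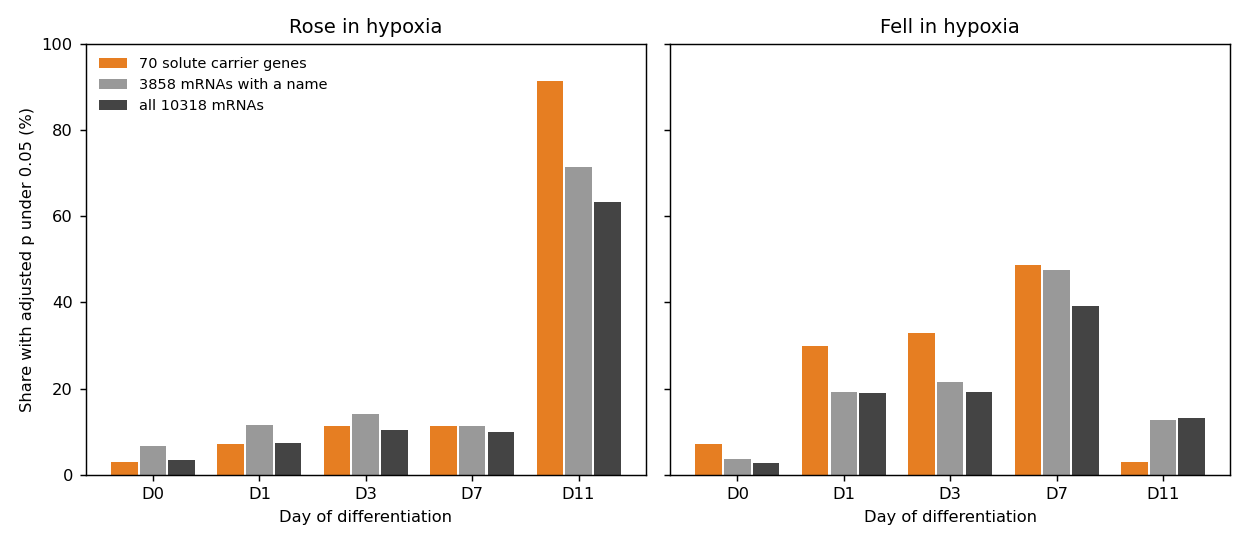
Share of genes (%) that rose (left) or fell (right) in hypoxia at each day, among the 70 solute carrier genes, the 3858 mRNAs with a name and all 10318 mRNAs. At D11 the bars for genes that rose reach 91.4% of members, 71.5% of named mRNAs and 63.3% of all mRNAs.

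The median member moved by -0.10, -0.09, -0.15 and -0.27 on the log2 scale at D0, D1, D3 and D7, and by 1.04 at D11. All mRNAs had medians of -0.05, -0.09, -0.07, -0.19 and 0.51 at the same timepoints. The shift of all genes mattered for the balance of directions. After centring each library on its median, the mean effect over D0, D1 and D3 had 13 rises (26.7% of all mRNAs) and 23 falls (24.5%). D1 then had 9 rises (17.1% of all mRNAs) and 16 falls (16.6%), D7 had 17 rises (31.2%) and 23 falls (23.1%), and D11 had 45 rises (32.6%) and 7 falls (38.9%). Quantile normalization gave 20 rises (28.2%) and 24 falls (26.7%) at D7, and 47 rises (35.0%) and 7 falls (30.9%) at D11.

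The counts were also taken without members whose name rested only on the study's call at that timepoint. This step takes out genes picked for a change there, so it lowers the counts by construction. Members that the study listed at that timepoint and elsewhere stay in, so the rest is not a neutral sample. Of the 68 whose name did not rest on the D1 call alone, there were 4 rises (7.36% of all mRNAs) and 20 falls (18.9%) at D1. The 58 such members at D7 had 7 rises (12.1%, against 9.97% of all mRNAs) and 23 falls (39.7%, against 39.2%). Both shares were near those of all mRNAs, after a step that could only lower the counts. Of 50 such members at D11, 44 were higher (63.3% of all mRNAs) and 2 lower (13.2%), with a median log2 fold change of 0.86. Of the 13 members named only as lncRNA neighbours, 9 were higher at D11 (63.3% of all mRNAs) and 1 lower (13.2%), with a median of 0.44, or -0.08 relative to the median of all mRNAs. With median centring 2 of them were higher (32.6%) and 5 lower (38.9%), and with quantile normalization 4 were higher (35.0%) and 4 lower (30.9%).

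A fold change over 2 was rare outside D11. No member passed both an adjusted p under 0.05 and an absolute log2 fold change over 1 at D0 or D3. Slc25a36 and Slc4a8 did so at D1, both upward (1.29% of all mRNAs upward, 0.485% downward). Slc25a37 was higher (0.688% of all mRNAs) and Slc12a2, Slc27a4 and Slc30a6 were lower (4.86%) at D7. At D11, 37 members were higher (21.2% of all mRNAs) and 0 were lower (2.64%), where 2 members had an adjusted p under 0.05 in the lower direction.

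**Figure D2:**
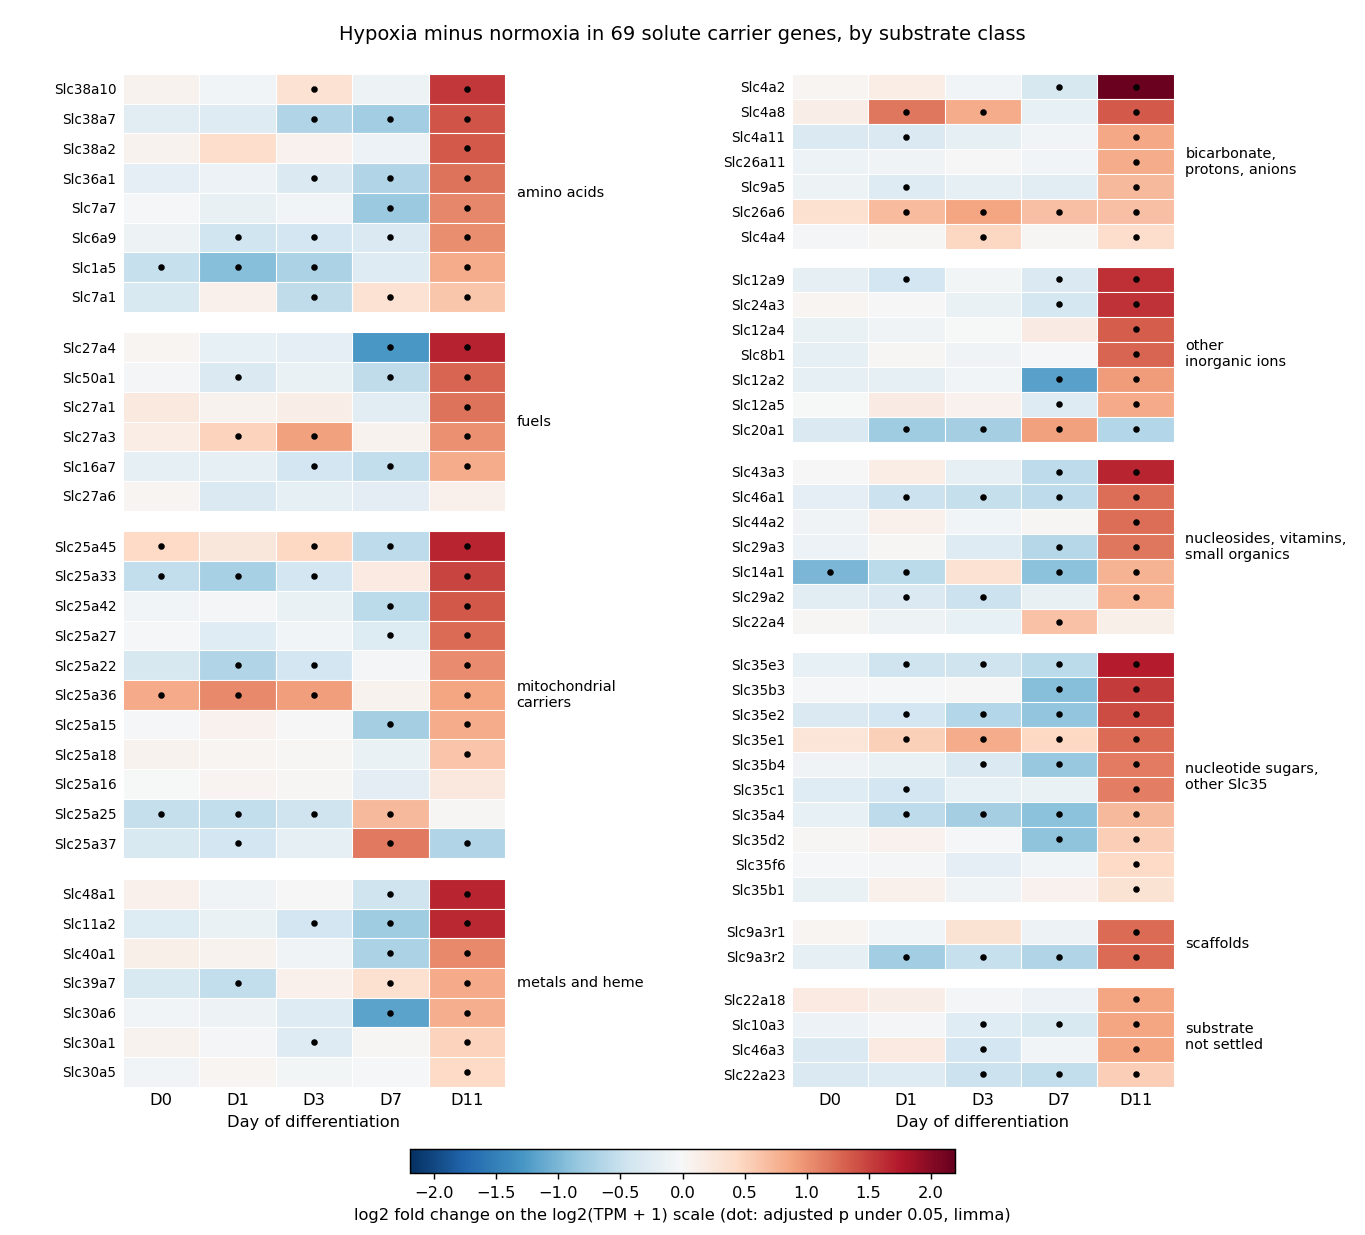
Hypoxia minus normoxia (log2 fold change on the log2(TPM + 1) scale, colour) for 69 of the 70 genes at 5 days of differentiation, grouped by substrate class, with a dot where the adjusted p was under 0.05. Blue cells prevail at D7, where 34 members fell, red cells fill the D11 column, where 64 rose, and Slc25a36, Slc26a6 and Slc35e1 are red at D1 and D3.

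Fuel carriers differed among themselves. Slc27a4 encodes FATP4, an acyl-CoA synthetase that draws long-chain fatty acids into cells. It had 1.45 and 1.35 TPM in hypoxia at D7, against 4.65 and 5.03 TPM in normoxia. At D11 it had 7.42 and 7.36 TPM in libraries labelled hypoxia, against 1.84 and 1.38 TPM in those labelled normoxia. It fell at D7 by 1.28 on the log2 scale (SE 0.11, adjusted p = 4.8e-08) and was higher at D11 by 1.69 (SE 0.11, adjusted p = 1.6e-10), and at D0, D1 and D3 it did not pass the test. Slc27a3, of the same family, rose by 0.50 at D1 (adjusted p = 0.003) and 0.91 at D3 (adjusted p = 8.9e-06). Its values at D3 were 2.85 and 3.05 TPM in hypoxia, against 1.05 and 1.16 TPM in normoxia. Slc27a6 (FATP6), the most abundant fuel carrier, had 20.9 and 19.3 TPM in libraries labelled hypoxia at D11, against 18.2 and 18.8 TPM in those labelled normoxia, and passed the test at no timepoint. Its 2 conditions overlapped at D0 and D1.

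Slc50a1 (SWEET1), a sugar facilitator, had 7.25 and 6.65 TPM in hypoxia at D7, against 10.6 and 10.8 TPM in normoxia (adjusted p = 0.00032). Its D11 values were 27.4 and 32.8 TPM in libraries labelled hypoxia, against 11.6 and 11.8 TPM in those labelled normoxia. Slc16a7 (MCT2), a carrier of lactate, pyruvate and ketone bodies, stayed under 2 TPM in every library. It fell at D3 and D7 (log2 fold changes of -0.40 and -0.54) and was higher at D11 by 0.82. Of the 6 fuel carriers, 3 fell at D7 (39.2% of all mRNAs) and 5 were higher at D11 (63.3%).

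Among amino acid carriers, Slc1a5 encodes ASCT2, which exchanges glutamine for other neutral amino acids. It had 5.90 and 6.56 TPM in hypoxia at D1, against 11.7 and 14.2 TPM in normoxia. At D3 it had 4.85 and 5.66 TPM in hypoxia, against 8.13 and 10.1 TPM in normoxia. The libraries did not overlap at either day, as for 62.6% of all mRNAs at D1 and 66.1% at D3. The gene fell by 0.94 at D1 (SE 0.13, adjusted p = 2.6e-05) and by 0.69 at D3 (adjusted p = 0.00049). At D0 it fell by 0.51 (adjusted p = 0.022), a call that was lost whichever of the 4 libraries was left out (adjusted p of 0.096 to 0.14). At D11 it was higher by 0.81 in libraries labelled hypoxia, but by 0.25 with each library centred on its median (adjusted p = 0.05).

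Of the 8 amino acid carriers, 1 fell at D0 (2.7% of all mRNAs), 2 at D1 (18.9%), 5 at D3 (19.3%) and 4 at D7 (39.2%). Slc38a7 (SNAT7), a glutamine carrier of lysosomes, had 2.54 and 2.08 TPM in hypoxia at D3, against 4.09 and 4.39 TPM in normoxia. It fell by 0.67 at D3 (adjusted p = 0.00047) and by 0.77 at D7 (adjusted p = 4.4e-05). Slc38a10 went the other way at D3, at 26.4 and 25.3 TPM in hypoxia against 19.6 and 21.3 TPM in normoxia (log2 fold change 0.33, adjusted p = 0.035). Slc38a2 passed the test only at D11, where it had 262 and 311 TPM in libraries labelled hypoxia, against 90.3 and 137 TPM in those labelled normoxia (1.35, SE 0.16).

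Slc7a7 (y+LAT1), which exchanges cationic for neutral amino acids, had 2.71 and 2.43 TPM in hypoxia at D7, against 5.23 and 5.33 TPM in normoxia (-0.82, adjusted p = 8.5e-06). Slc7a1 (CAT1), an arginine and lysine carrier, had 4.78 and 5.27 TPM in hypoxia at D7, against 3.68 and 3.91 TPM in normoxia (0.33, adjusted p = 0.04, lost without any 1 of the 4 libraries at adjusted p of 0.051 to 0.19). At D3 Slc7a1 had fallen by 0.56, to 7.84 and 7.07 TPM in hypoxia against 10.3 and 12.7 TPM in normoxia (adjusted p = 0.003, or 0.064 without normoxia replicate 2). All 8 were higher at D11, Slc7a1 by 0.61 as fitted but by -0.05 with quantile normalization.

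Of the 12 mitochondrial carriers, 2 rose (3.39% of all mRNAs) and 3 fell (2.7%) at D0, and 1 rose (7.36%) and 5 fell (18.9%) at D1. Slc25a36 encodes PNC2, which brings pyrimidine nucleotides into mitochondria. It had 74.2 and 62.3 TPM in hypoxia at D0, against 38.5 and 36.6 TPM in normoxia. At D1 it had 60.2 and 70.5 TPM in hypoxia, against 29.8 and 32.4 TPM in normoxia, and at D3 70.8 and 63.4 TPM, against 33.6 and 36.4 TPM. It rose at all 3 of these timepoints, by 0.84 (SE 0.13, adjusted p = 0.00023), 1.05 (adjusted p = 8e-06) and 0.92 (adjusted p = 3.1e-05), and was the only member to do so. At D7 the conditions overlapped, at 68.1 and 66.3 TPM in hypoxia and 59.0 and 69.2 TPM in normoxia. In normoxic cells it rose by 0.85 between D3 and D7 (SE 0.13, adjusted p = 2.7e-05).

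Its relative Slc25a33 (PNC1), a carrier for the same kind of substrate, went the opposite way. It had 23.7 and 22.7 TPM in hypoxia at D0, against 33.5 and 35.7 TPM in normoxia, and 12.2 and 12.3 TPM at D1, against 22.0 and 20.1 TPM. It fell by 0.55 at D0 (adjusted p = 0.0024), by 0.73 at D1 (adjusted p = 4.7e-05) and by 0.40 at D3 (adjusted p = 0.0077). The D3 call was lost without hypoxia replicate 1 (adjusted p = 0.065) or normoxia replicate 2 (0.067). Its D11 values were 27.2 and 28.3 TPM in libraries labelled hypoxia, against 8.46 and 10.0 TPM in those labelled normoxia.

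Slc25a25 (SCaMC-2), which exchanges ATP-Mg for phosphate, fell at D0, D1 and D3 by 0.52, 0.54 and 0.46. Each call was lost when some single library was left out, any of the 4 at D0 (adjusted p of 0.089 to 0.17), hypoxia replicate 1 or normoxia replicate 2 at D1 (0.12 and 0.11), and any but hypoxia replicate 1 at D3 (0.054 to 0.12). At D7 it was higher in hypoxia, at 3.29 and 4.02 TPM, against 1.98 and 1.72 TPM in normoxia (0.71, adjusted p = 0.00024).

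Slc25a37 encodes mitoferrin-1, which imports iron into mitochondria. It had 21.6 and 28.5 TPM in hypoxia at D7, against 9.95 and 11.1 TPM in normoxia. By D11 values were 15.5 and 12.8 TPM in libraries labelled hypoxia, against 21.6 and 24.5 TPM in those labelled normoxia. It rose at D7 by 1.16 (SE 0.14, adjusted p = 1.7e-06), more than any other member, and was lower at D11 by 0.67 (log2 fold change -0.67, adjusted p = 0.0002). Slc25a45, an orphan carrier, rose at D0 and D3 (0.43 and 0.46), fell at D7 (-0.57), and had 7.22 and 7.4 TPM in libraries labelled hypoxia at D11, against 1.55 and 1.66 TPM in those labelled normoxia (1.67, SE 0.10). Slc25a16, a carrier linked to coenzyme A, passed the test in neither direction at any timepoint.

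**Figure D3:**
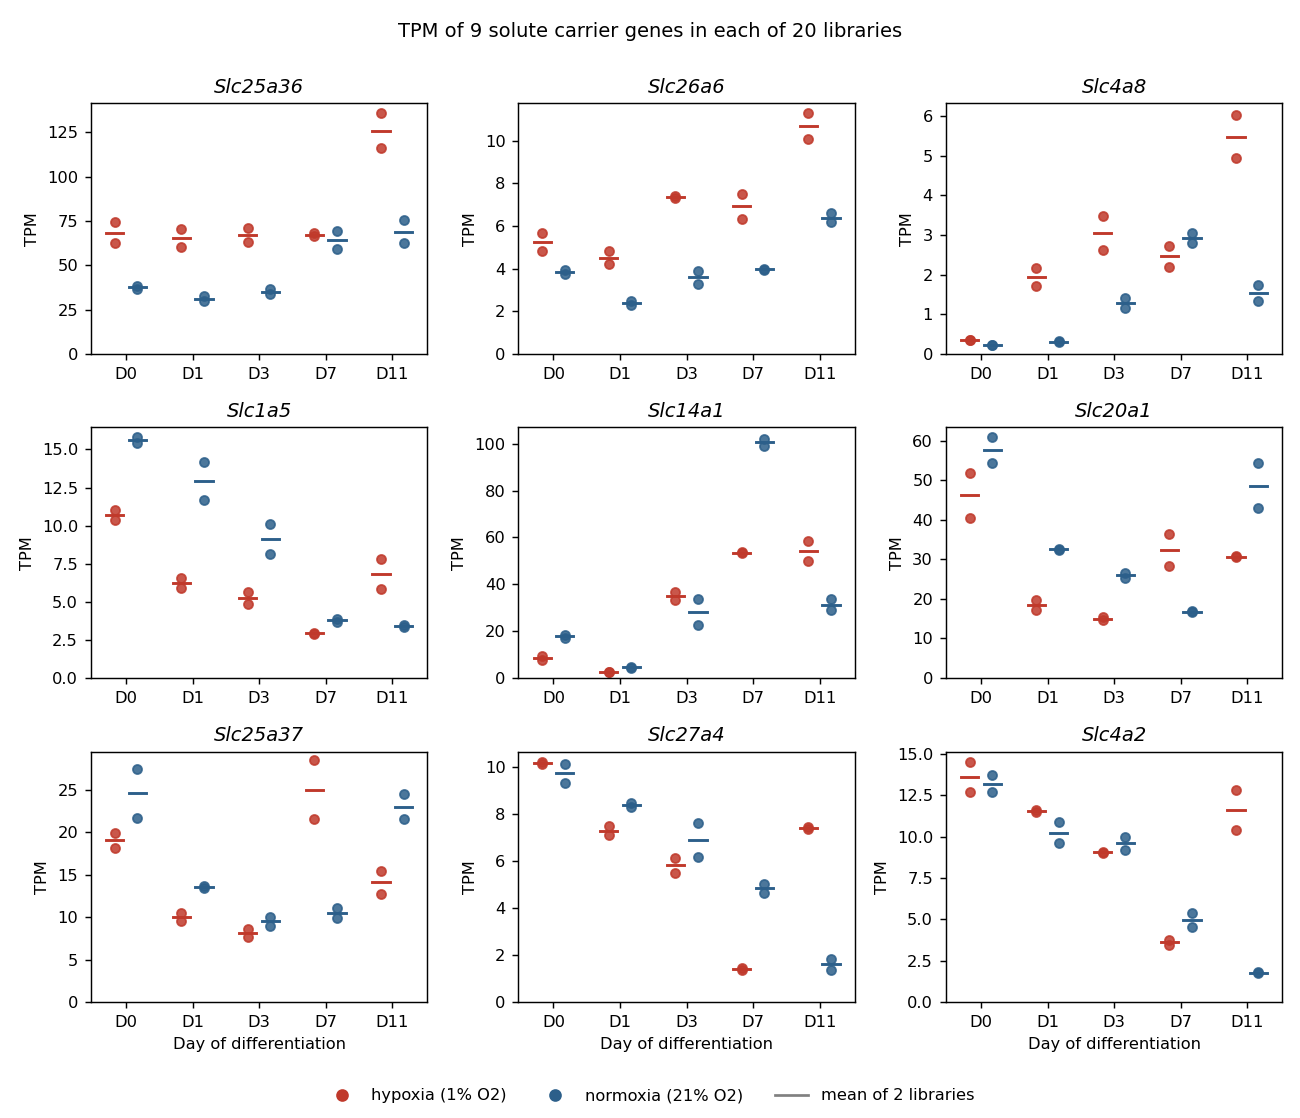
TPM of 9 solute carrier genes in each library (points) with the mean of the 2 libraries (bar), for hypoxia (left of each pair, red) and normoxia (right, blue) over 5 days. Slc25a36 lies above its normoxic level at D0, D1 and D3 and overlaps it at D7, Slc20a1 and Slc25a37 change order between D3 and D7 and again at D11, and Slc27a4 is at 1.45 and 1.35 TPM in hypoxia at D7.

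Of the 7 metal and heme carriers, 4 fell (39.2% of all mRNAs) and 1 rose (9.97%) at D7. Slc11a2 (DMT1), which moves ferrous iron into the cytosol, had 2.06 and 1.6 TPM in hypoxia at D7, against 3.68 and 4.05 TPM in normoxia (-0.79, SE 0.11, adjusted p = 1.5e-05). Slc40a1 (ferroportin), the iron exporter, had 0.498 and 0.394 TPM in hypoxia at D7, against 1.22 and 1.47 TPM in normoxia (-0.70, adjusted p = 2.4e-05). Slc48a1 (HRG1), a heme carrier, fell by 0.45 at D7 (adjusted p = 0.00092). All 3 were higher at D11, at 8.84 and 9.45 TPM for Slc11a2 and 6.43 and 6.21 TPM for Slc48a1 in libraries labelled hypoxia, against 2.11 and 2.37 TPM and 1.17 and 1.41 TPM in those labelled normoxia.

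Other iron and heme genes from a list of partners moved at D7 too. Tfrc, the transferrin receptor, had 31.0 and 22.3 TPM in hypoxia at D7, against 85.8 and 89.2 TPM in normoxia (-1.70, adjusted p = 4.8e-08). Hmox1, the heme-degrading enzyme, had 242 and 299 TPM in hypoxia at D7, against 96.4 and 109 TPM in normoxia (1.38, adjusted p = 5.7e-07). At D7 Slc25a37 and Hmox1 were higher and Slc11a2, Slc40a1 and Tfrc lower in hypoxic cells. Each of the 5 had the other sign at D11 with an adjusted p under 0.05. Of all mRNAs, 31.1% fell at D7 and were higher at D11, and 3.11% rose at D7 and were lower at D11. Slc11a2 and Slc40a1 were chosen for mention after their values were seen.

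Among zinc carriers, Slc30a6 (ZnT6), the partner of Slc30a5 in loading zinc into the secretory pathway, had 1.38 and 0.609 TPM in hypoxia at D7, against 3.26 and 3.56 TPM in normoxia (-1.17, SE 0.15, adjusted p = 4.7e-06). Slc30a5 (ZnT5) had 16.1 and 12.9 TPM against 14.2 and 15.2 TPM, and overlapped. Slc39a7 (ZIP7), which releases zinc from the endoplasmic reticulum, fell by 0.55 at D1 (adjusted p = 0.0035), to 20.3 and 22.5 TPM in hypoxia against 29.5 and 33.9 TPM in normoxia. The D1 call was lost without normoxia replicate 2 (adjusted p = 0.066). It was higher by 0.35 at D7 (adjusted p = 0.029), a call lost without hypoxia replicate 2 or either normoxic library (adjusted p of 0.063 to 0.36). Slc30a1 (ZnT1), the zinc exporter, fell by 0.29 at D3 (adjusted p = 0.039, lost without hypoxia replicate 2 or either normoxic library at 0.065 to 0.33). At D11 Slc30a1 and Slc30a5 were higher by 0.51 and 0.44 in libraries labelled hypoxia, but had -0.05 and -0.13 with median centring.

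The metallothioneins, zinc-binding proteins, rose at D0, D1 and D3. Mt1 had 832 and 789 TPM in hypoxia at D0, against 369 and 204 TPM in normoxia, with log2 fold changes of 1.56 at D0, 1.35 at D1 and 1.40 at D3. Mt2 had 1.5, 1.32 and 0.96 at the same days, and both passed the test each time. At D0 no zinc or iron carrier among the members passed the test.

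Of the 7 carriers of bicarbonate, protons and anions, 2 rose at D1 (7.36% of all mRNAs) and 2 fell (18.9%), and 3 rose at D3 (10.4%). Slc26a6, an anion exchanger, had 4.21 and 4.81 TPM in hypoxia at D1, against 2.31 and 2.47 TPM in normoxia, and 7.43 and 7.33 TPM at D3, against 3.30 and 3.91 TPM. At D7 it had 6.34 and 7.5 TPM in hypoxia, against 3.94 and 3.99 TPM in normoxia. Its hypoxic libraries lay above its normoxic ones at all 5 timepoints. At a single day, 58.1% (D0) to 84.6% (D11) of all mRNAs had no overlap in either direction. It rose by 0.70, 0.87, 0.67 and 0.67 at D1, D3, D7 and D11 (adjusted p of 0.00011, 1e-05, 5.6e-05 and 1.8e-05), and at D0 its log2 fold change was 0.36 (adjusted p = 0.055). At D11 the value was 0.11 with each library centred on its median (adjusted p = 0.28).

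Slc4a8 (NDCBE), a sodium-driven chloride-bicarbonate exchanger that moves acid equivalents out of cells, had 1.72 and 2.18 TPM in hypoxia at D1, against 0.293 and 0.327 TPM in normoxia. At D3 it had 3.49 and 2.63 TPM in hypoxia, against 1.17 and 1.40 TPM in normoxia. It rose by 1.17 (SE 0.12, adjusted p = 1.5e-06) and 0.82 (adjusted p = 7.2e-05), and at D7 its log2 fold change was -0.18 (adjusted p = 0.23). Slc4a4 (NBCe1), a sodium-bicarbonate cotransporter, rose at D3, at 0.610 and 0.707 TPM in hypoxia against 0.196 and 0.183 TPM in normoxia (0.48, adjusted p = 0.003). Its D11 value was 0.40 as fitted and -0.16 with median centring.

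Slc4a2 (AE2), a chloride-bicarbonate exchanger that loads cells with acid, did not pass the test at D0, D1 or D3. It fell at D7 as fitted, but not with each library centred on its median (-0.11, adjusted p = 0.37). At D11 it had 12.8 and 10.4 TPM in libraries labelled hypoxia, against 1.80 and 1.75 TPM in those labelled normoxia. This difference of 2.18 (SE 0.11, adjusted p = 1.5e-11) was the largest of any member at D11, and stood at 1.62 with each library centred on its median. The 4 named partners in acid and lactate handling were split. In the mean effect over D0, D1 and D3, 2 rose (14.4% of all mRNAs) and 2 fell (30.3%). Falls at single days were 1 at D3 (19.3%) and 1 at D7 (39.2%). Ldha (lactate dehydrogenase A) rose by 1.6 at D0. Bsg (basigin), the chaperone that brings lactate carriers to the cell surface, rose by 0.99 at D0, 1.04 at D1 and 1.35 at D3. Bsg had 104 and 104 TPM in hypoxia at D0, against 52.5 and 51.2 TPM in normoxia. At D7 neither Ldha nor Bsg passed the test.

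Of the 7 carriers of other inorganic ions, 2 fell at D1 (18.9% of all mRNAs), namely Slc20a1 and Slc12a9. Slc20a1 (PiT-1) takes up phosphate with sodium. It had 17.1 and 19.7 TPM in hypoxia at D1, against 32.7 and 32.4 TPM in normoxia, and 15.4 and 14.7 TPM at D3, against 25.4 and 26.7 TPM. At D7 the order turned, to 28.4 and 36.4 TPM in hypoxia against 16.6 and 17 TPM in normoxia, and at D11 it turned again, to 30.6 and 30.8 TPM in libraries labelled hypoxia against 43.1 and 54.3 TPM in those labelled normoxia. Its log2 fold changes were -0.79, -0.75, 0.90 and -0.64 (SE 0.14 each, adjusted p of 0.00028, 0.0004, 2.6e-05 and 0.00031).

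Of the Slc12 family of chloride cotransporters, Slc12a2, Slc12a5 and Slc12a9 fell at D7. Slc12a2 (NKCC1), which brings sodium, potassium and chloride into cells, had 4.37 and 3.28 TPM in hypoxia at D7, against 9.90 and 10.0 TPM in normoxia (-1.19, SE 0.13, adjusted p = 8.3e-07). Slc12a4 (KCC1), which moves potassium and chloride outward, had 13.5 and 14.0 TPM in hypoxia at D7, against 11.5 and 12.6 TPM in normoxia (0.18, adjusted p = 0.15). Slc12a9 fell by 0.40 at D1 and 0.32 at D7, and Slc12a5 (KCC2), which lay under 1 TPM at D7, fell by 0.28. At D11 Slc12a2 and Slc12a4 were higher by 0.93 and 1.33. Slc24a3 (NCKX3), a potassium-dependent sodium-calcium exchanger, had 2.67 and 2.79 TPM in libraries labelled hypoxia at D11, against 0.210 and 0.265 TPM in those labelled normoxia, and averaged 0.538 TPM over the 20 libraries.

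Among carriers of nucleosides, vitamins and small organic molecules, Slc14a1 varied most. It encodes UT-B, the urea channel of red cells and kidney vessels. It had 7.61 and 9.28 TPM in hypoxia at D0, against 17.2 and 18.3 TPM in normoxia, and 53.2 and 53.7 TPM at D7, against 99.1 and 102 TPM. It fell by 1.00 at D0 (SE 0.15, adjusted p = 0.00018), by 0.59 at D1 (adjusted p = 0.0064, or 0.087 without normoxia replicate 2) and by 0.90 at D7 (adjusted p = 6.3e-05), while at D3 the conditions overlapped. In the D11 libraries it had 58.5 and 50.1 TPM in libraries labelled hypoxia, against 28.9 and 33.8 TPM in those labelled normoxia (0.77, or 0.21 with each library centred on its median).

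Slc22a4 (OCTN1), a carrier of ergothioneine, rose only at D7, at 2.96 and 3.80 TPM in hypoxia against 1.61 and 1.97 TPM in normoxia (0.65, adjusted p = 0.00038). Slc46a1 (PCFT), the proton-coupled folate carrier, fell at D1, D3 and D7 by 0.48, 0.53 and 0.58. Slc43a3, a purine nucleobase carrier, had 0.591 and 0.625 TPM in hypoxia at D7, against 1.48 and 1.33 TPM in normoxia, and 4.03 and 4.66 TPM at D11, against 0.593 and 0.744 TPM. Its D11 difference was 1.68 (SE 0.10, adjusted p = 6.8e-11).

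Slc35 carriers, which bring nucleotide sugars and related donors into the Golgi and endoplasmic reticulum, had 6 of 10 members lower (39.2% of all mRNAs) and 1 higher (9.97%) at D7. Their median was -0.71, against -0.19 for all mRNAs, but Slc35a4, Slc35b3 and Slc35b4 had a name only because the study listed them at D7. Slc35b3, a carrier of the sulfate donor PAPS, had 5.32 and 3.36 TPM in hypoxia at D7, against 9.21 and 8.84 TPM in normoxia (-0.93, adjusted p = 1e-05). Slc35d2, a carrier of UDP-sugars, had 1.67 and 1.45 TPM in hypoxia at D7, against 3.76 and 3.71 TPM in normoxia (-0.89, adjusted p = 1.6e-06). Slc35a4 fell at D1, D3 and D7 by 0.58, 0.74 and 0.90. All 10 were higher in libraries labelled hypoxia at D11 as fitted, though Slc35b1 and Slc35f6 turned to -0.25 and -0.12 with median centring. Slc35e3 was higher by most, at 8.37 and 9.66 TPM against 2.27 and 1.77 TPM (1.73, SE 0.12).

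Slc35e1 was the only member of this class to rise at D1, D3 or D7. It had 14.3 and 16.0 TPM in hypoxia at D1, against 9.95 and 10.4 TPM in normoxia, and 19.0 and 16.9 TPM at D3, against 8.62 and 11.2 TPM. It rose by 0.53, 0.81, 0.46 and 1.24 at D1, D3, D7 and D11 (adjusted p of 0.0041, 9e-05, 0.0047 and 3.7e-08), the D7 call being lost without hypoxia replicate 2 (adjusted p = 0.10). Slc35b1, which exchanges ATP into the endoplasmic reticulum, was the most abundant of the class, between 31.4 and 74.1 TPM over all libraries. Its D11 log2 fold change was 0.31 (adjusted p = 0.018), a call lost without hypoxia replicate 2 (adjusted p = 0.14) or normoxia replicate 1 (0.20).

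The scaffold gene Slc9a3r2 (NHERF2) had 0.517 and 0.435 TPM in hypoxia at D1, against 1.44 and 1.6 TPM in normoxia, and fell at D1, D3 and D7 by 0.77, 0.51 and 0.66. Slc9a3r1 (NHERF1) passed the test only at D11, where it had 5.71 and 3.82 TPM in libraries labelled hypoxia, against 1.36 and 1.46 TPM in those labelled normoxia. Of the 4 members of unsettled substrate, Slc22a23 fell at D3 and D7 by 0.47 and 0.54, with 4.60 and 5.37 TPM in hypoxia at D7 against 7.15 and 8.24 TPM in normoxia. Its D3 call was lost without replicate 2 of hypoxia (adjusted p = 0.083) or normoxia (0.12), and its D11 value was 0.54 as fitted and -0.02 with median centring. Slc46a3, a lysosomal member, fell at D3 by 0.41 (adjusted p = 0.012, lost without 1 of 3 libraries at 0.056 to 0.13) and had 9.82 and 11.3 TPM in libraries labelled hypoxia at D11, against 4.60 and 6.21 TPM in those labelled normoxia.

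Of the 70 members, 34 fell at D7 but were higher at D11 (31.1% of all mRNAs), and 26 were higher at D11 without passing at D7 (28.4%). Calls at D0, D1 and D3 are left aside here. A further 4 rose at both (Slc7a1, Slc26a6, Slc35e1 and Slc39a7; 3.86%), and Slc20a1 and Slc25a37 were higher at D7 but lower at D11 (3.11%). These calls were partly what gave members their names. Slc22a4 and Slc25a25 rose at D7 and did not pass at D11, and Slc25a16 and Slc27a6 passed at neither. In a test of the difference itself, 62 members had a higher effect at D11 than at D7 (62.6% of all mRNAs) and 4 a lower one (12.1%). After median centring these were 42 (30.5%) and 12 (41.0%), and after quantile normalization 39 (33.4%) and 9 (32.8%). For Slc27a4 the difference was 2.97 (adjusted p = 1.1e-11), and for Slc25a37 it was -1.83 (adjusted p = 7.6e-08). Some marker genes moved with this turn. The named stromal markers summed to 10.1 to 12.9 TPM in hypoxia at D7, against 20.9 to 23.0 TPM in normoxia, and to 24.0 to 27.9 TPM in libraries labelled hypoxia at D11, against 10.1 to 12.7 TPM in those labelled normoxia. The named fat cell markers summed to 401 to 447 TPM in hypoxia at D7, against 570 to 589 TPM in normoxia, and overlapped at D11. That sum hides single markers that went different ways. At D7 Pparg and Pnpla2 rose (0.93 and 0.91), Fabp4 and Cd36 fell (-0.98 and -0.55), and Lpl and Lipe did not pass the test. At D11 Cd36, Lpl, Pnpla2 and Lipe were higher (2.89, 1.47, 1.45 and 1.02), Pparg was lower (-0.58) and Fabp4 did not pass. The part of cell make-up in these results was not tested.

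**Figure D4:**
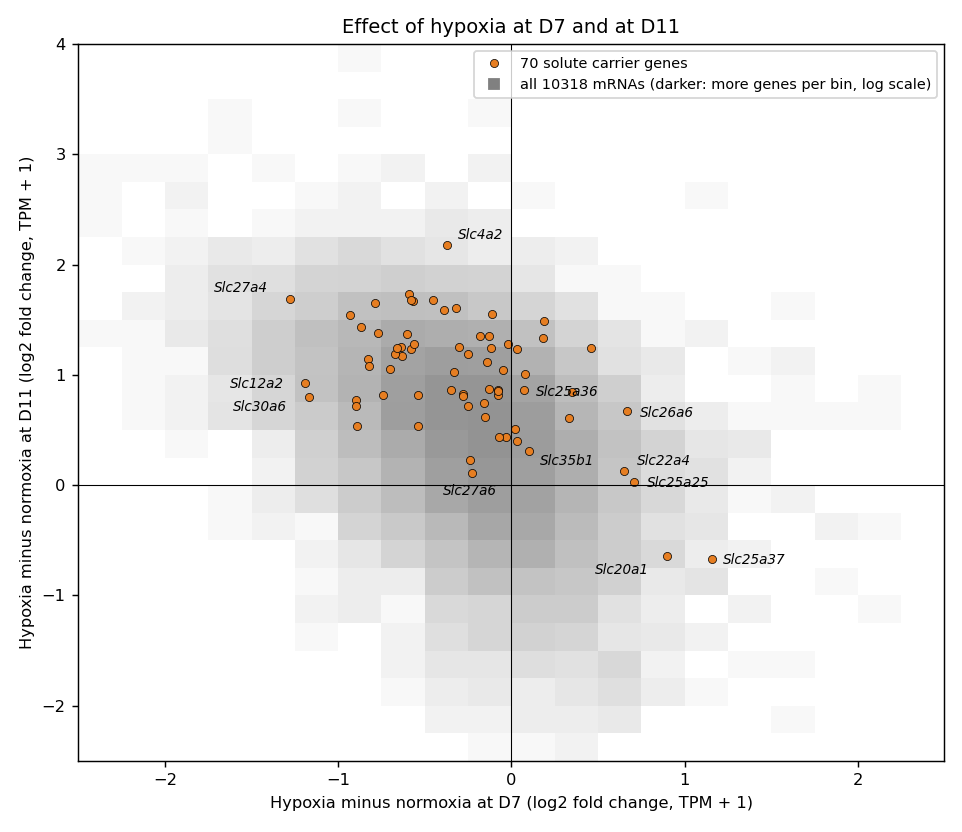
Log2 fold change (hypoxia minus normoxia, log2(TPM + 1) scale) at D7 against that at D11 for the 70 solute carrier genes (points) over all mRNAs (grey bins, 11 of 10318 genes lie outside the axes). Most points lie at the upper left, where 34 members fell at D7 but were higher at D11, and Slc20a1 and Slc25a37 lie in the lower right.

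Without oxygen as a factor, nearly all members varied with differentiation. Over the 5 normoxic stages 67 of 70 members passed an F test (95.7%, against 92.2% of all mRNAs). Between D0 and D11 in normoxia, 11 members rose (20.4% of all mRNAs) and 42 fell (54.8%). Median centring gave 24 rises (41.0%) and 29 falls (34.7%), and quantile normalization 19 (34.8%) and 30 (39.1%), so this balance depended on scaling. The first day of induction brought 3 rises (8.46%) and 31 falls (34.8%), or 8 (21.1%) and 18 (21.2%) with centring. Between D1 and D3, 14 rose (10.8%) and 5 fell (13.7%), and between D3 and D7, 13 rose (12.7%) and 27 fell (32.7%). That balance turned with centring, to 23 rises (28.8%) and 19 falls (22.5%), and was 21 (25.9%) and 25 (27.5%) with quantile normalization. Between D7 and D11, 8 rose (30.6%) and 35 fell (28.6%), or 9 (35.4%) and 33 (30.8%) with centring. The study's calls at D7 and D11, which gave many members their names, used the same normoxic libraries. Normoxic counts that involve D7 or D11 are therefore not free of the naming. Of the 13 members named only as lncRNA neighbours, 4 rose (30.6% of all mRNAs) and 1 fell (28.6%) between D7 and D11.

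The steepest normoxic declines among members were those of Slc4a2, Slc27a4, Slc1a5 and Slc7a1. Slc4a2 had 1.80 and 1.75 TPM at D11, against 12.7 and 13.7 TPM at D0, and fell by 2.36 (SE 0.11, adjusted p = 1.6e-12). Slc27a4 fell by 2.04, Slc1a5 by 1.91 and Slc7a1 by 1.84. Slc1a5 had 3.36 and 3.46 TPM at D11, against 15.4 and 15.8 TPM at D0. The gains were smaller: Slc4a8 rose by 1.04 (adjusted p = 3.2e-07), Slc25a36 by 0.86, Slc14a1 by 0.78, Slc27a3 by 0.73 and Slc7a7 by 0.71. Slc14a1 had its highest value at D7, at 99.1 and 102 TPM, against 4.14 and 4.89 TPM at D1. The D11 values in these sentences rest on the normoxia label at D11.

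**Figure D5:**
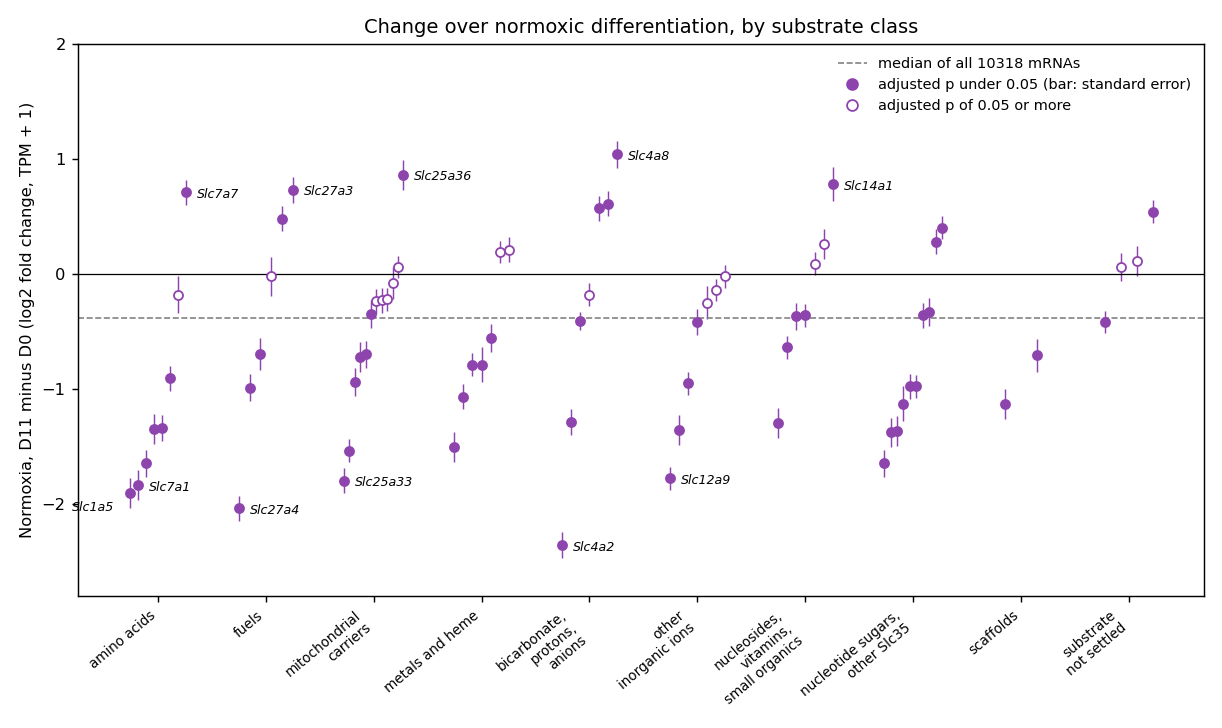
Change in normoxia between D0 and D11 (log2 fold change on the log2(TPM + 1) scale, with standard error) for each solute carrier gene, by substrate class. Filled points had an adjusted p under 0.05, and the dashed line is the median of all mRNAs at -0.38. Slc4a2 is lowest at -2.36 and Slc4a8 highest at 1.04.

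The group of highest expression followed from these courses. In 46 of 70 members the highest mean was in the D11 libraries labelled hypoxia (65.7%, against 41.6% of all mRNAs). In 16 it was in normoxia at D0 (22.9%, against 25.8%). The study's calls at D11 gave many members their names, and they favour genes high in one D11 condition and low in the other. Shares of members that peaked at D11 are therefore partly built in by the naming. Over normoxic groups alone, 36 members peaked at D0, 14 at D7, 7 each at D3 and D11, and 6 at D1. All mRNAs peaked at D11 in 22.6% of cases and at D7 in 10.4%, against 10.0% and 20.0% of members. At D0, D1 and D3 the shares were 48.1%, 14.0% and 4.92% of all mRNAs, against 51.4%, 8.57% and 10.0% of members.

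Other transport genes were taken from a list by name pattern. Of 14 named ABC transporters, 11 fell at D7 (39.2% of all mRNAs) and 12 were higher at D11 (63.3%). Abca1, the cholesterol exporter, had 34.1 and 34.3 TPM in libraries labelled hypoxia at D11, against 3.62 and 4.67 TPM in those labelled normoxia. Both named aquaporins fell at D7, Aqp7, the glycerol channel of fat cells, by 1.36 (0.973 and 0.843 TPM in hypoxia against 3.79 and 4.02 TPM in normoxia). Aqp1, a water channel, rose at D1 by 1.71. Ucp3, a mitochondrial uncoupling protein, fell by 1.56 at D7 and was higher by 1.86 at D11. The 40 named companion genes had 6 rises (3.39% of all mRNAs) and 4 falls (2.7%) at D0, 10 rises (7.36%) and 6 falls (18.9%) at D1, and 9 rises (10.4%) and 10 falls (19.3%) at D3. They had 5 rises (9.97%) and 22 falls (39.2%) at D7, and 25 rises (63.3%) and 2 falls (13.2%) at D11, where the share of rises, 62.5%, was near that of all mRNAs.

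Of 4 fatty acid uptake partners and of 4 amino acid response partners, 3 each were higher at D11 (63.3% of all mRNAs), while Fabp4 (-0.16) and Chac1 (0.14) did not pass the test. Cd36, the fatty acid translocase, had 52.2 and 59.8 TPM in libraries labelled hypoxia at D11, against 5.57 and 8.0 TPM in those labelled normoxia (2.89). Trib3, a pseudokinase induced when amino acids run short, had 64.2 and 64.0 TPM against 7.32 and 7.69 TPM (2.94). At D1 and D3, when Slc1a5 fell, Trib3 fell too, by 0.78 and 0.74. The 4 amino acid response partners were mixed at these days. At D1 2 fell (18.9% of all mRNAs) and 1 rose (7.36%), and at D3 2 fell (19.3%) and 1 rose (10.4%).

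Of the members, 26 had a listed lncRNA neighbour in the lncRNA table, in 35 pairs. A pair of these is given as values, chosen after all were seen. G9897, beside Slc26a6, had 23.5 and 28.5 TPM in hypoxia at D1, against 11.6 and 13 TPM in normoxia, and 59.1 and 48.8 TPM in libraries labelled hypoxia at D11, against 27.9 and 25.3 TPM in those labelled normoxia. Its 2 conditions did not overlap at any of the 5 timepoints, like those of Slc26a6. With 2 libraries against 2 this was common at a single day. Of all mRNAs, 58.1%, 62.6%, 66.1%, 75.3% and 84.6% did not overlap at D0, D1, D3, D7 and D11. The same shares were not taken for lncRNAs, nor for all 5 timepoints together. G973, beside Slc39a7, had 6.57 and 7.51 TPM in hypoxia at D0, against 1.04 and 2.51 TPM in normoxia, while Slc39a7 itself had 37.8 and 37.8 TPM against 49.4 and 47.6 TPM.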

How the data were processed

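RNA depleted of ribosomal RNA was sequenced from 20 libraries. The authors used STAR 2.6.0c for alignment to the CriGri-PICR assembly and kallisto 0.44.0 for the TPM values they deposited, and the submitters' processing notes also name CASAVA 1.8.2. They kept mRNAs with TPM over 1 in both replicates of a group, so a gene can be listed through its high group alone, and all 70 members pass in this way. The files used here hold no counts per gene, so the precision of a low TPM is unknown and no count test was run. The number of libraries limits the precision.

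Names came from the gene names in the study's supplementary lists of changed genes and lncRNA pairs, of which the copy used is shortened for D11. Log2(TPM + 1) of all 10318 mRNAs was fitted in limma 3.58.1 (R 4.3.3; eBayes with trend) with a mean for each of 10 groups and 10 residual degrees of freedom. P-values were adjusted by Benjamini-Hochberg over all mRNAs within each contrast. A pseudocount of 1 understates changes of low genes. Columns of the authors' own comparisons were not used as values. Members, substrate classes, companion lists and tests were chosen with earlier results of these data known. Genes named in the text are those past both thresholds at D0, D1 or D3, the 6 with the largest relative rise and fall past both thresholds at D7 and D11, the most abundant of each class, the 13 neighbours of a lncRNA and the 2 companions of each group that changed most. The other genes named were chosen after their values were seen. The values of 1 member, which all counts include, are not reported here. Alternatives were pseudocounts of 0.1 and 5, a filter at 5 TPM, median centring, quantile normalization, a replicate block, fits of the compared groups alone and without the D11 libraries, and leaving out each library. The fit was tested on simulated data. Tables and figures used Python 3.11.15, numpy 2.4.6, pandas 2.3.3 and matplotlib 3.10.9.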

Additional observations from a re-analysis of the deposited data

Results flagged for a closer look

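By a contrast of the same limma model, the effect of hypoxia differed between D7 and D11 in most members. It was higher at D11 in 62 (62.6% of all mRNAs) and lower in 4 (12.1%). With each library centred on its median these were 42 (30.5%) and 12 (41.0%). Calls at these timepoints were partly what gave members their names. Of the 13 members named only as lncRNA neighbours, 8 were higher (62.6% of all mRNAs) and 2 lower (12.1%) as fitted. The largest differences (D11 effect minus D7 effect, log2 scale) were 2.97 for Slc27a4, 2.55 for Slc4a2, 2.47 for Slc35b3 and 2.43 for Slc11a2. The 4 lower ones were -1.83 for Slc25a37, -1.54 for Slc20a1, -0.67 for Slc25a25 and -0.52 for Slc22a4. All of these rest on the D11 labels as given, and from the expression values alone an exchange of those labels cannot be told apart from another response. Hypoxia-induced genes were mixed there, with Pgk1 lower (-0.70) and Ankrd37 higher (0.37, or -0.14 relative to the median of all mRNAs) in libraries labelled hypoxia. Groups of 2 libraries were too small to look for single outlying libraries.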

How the results depend on the processing

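Single libraries mattered most at the early timepoints. Leaving out any 1 of the 4 libraries of a timepoint gave 3 called members at D0 (7 with all), 14 to 26 at D1 (26), 16 to 26 at D3 (31), 34 to 37 at D7 (42) and 64 to 67 at D11 (66). The lowest D1 counts came without normoxia replicate 2 (14) and hypoxia replicate 1 (16), and the lowest D3 counts without hypoxia replicate 2 (16) and normoxia replicate 2 (16). The same step gave 62 to 66 members that differed between D11 and D7, 32 to 36 with a mean effect over D0, D1 and D3, and 49 to 54 that changed in normoxia between D0 and D11. It gave 25 to 28, 12 to 14, 31 to 37 and 31 to 40 for the 4 normoxic steps in order of time, and 92 to 106 calls of companion genes over the 5 timepoints. A filter at 5 TPM in some group leaves 43 members, and by that construction gave 40 called at D11, 39 that differed between D11 and D7, 34 that changed between D0 and D11 in normoxia, 22 between D0 and D1 and 25 between D7 and D11. Log2 fold changes at D11 turned negative with median centring for Slc22a23 (-0.02), Slc30a1 (-0.05), Slc30a5 (-0.13), Slc35b1 (-0.25), Slc35f6 (-0.12) and Slc4a4 (-0.16), and with quantile normalization for Slc22a23 (-0.05), Slc30a1 (-0.21), Slc4a4 (-0.25) and Slc7a1 (-0.05). Of 891 alternatives of 76 single-gene values, 807 kept direction and side of the threshold and 74 lost the call. Same-numbered libraries correlated in their deviations by 0.153, -0.125, 0.082, 0.013 and 0.282 at D0 to D11. With 2 libraries a group these values cannot settle whether the numbers pair the samples. A replicate block gave 7, 25, 26, 41 and 66 calls. With the numbers crossed at D1, added after seeing the data, 23 were called. The D11 labels, 2 libraries a group, unknown counting precision and names that lean on the study's own calls limit all counts.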
